A study of Mus musculus with 11 samples.

Results

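Acta1, Acta2, Tagln, Nexn, Cnn1, Myl9, Tpm1, Tpm2 and Actg2 are 9 genes of the contractile actin apparatus, out of 48952 genes in the bulk table and 32285 in the single-cell matrices of a study of naive extra-embryonic endoderm (nEnd) stem cells. They were listed because they were lower in cells carrying both OCT4 and PDGFRA than in cells carrying PDGFRA alone. They were thus chosen by the values of that contrast, which are given below as a description. Nothing is read from which of them pass a threshold there. nEnd cells are mouse cultures that model the primitive endoderm, the blastocyst lineage that forms the yolk sac, and they were kept on feeder layers of mouse embryonic fibroblasts in RACL medium, which contains Activin A, the GSK3 inhibitor CHIR99021 and LIF. For bulk RNA-seq, untreated nEnd cells of a single line with an OCT4-mCherry reporter were labelled with an antibody to the surface receptor PDGFRA, and live cells were sorted by flow cytometry into Pdgfra+ (receptor without reporter), DP (both signals) and Oct4+ (reporter without receptor), with 3 libraries per group. For single-cell RNA-seq, nEnd cells of the single Oct4LOF line were sorted for PDGFRA. In this line both copies of Pou5f1 (the gene of OCT4) can be deleted by 4-hydroxytamoxifen (4OHT). After the sort the cells were cultured with 4OHT (+4OHT) or untreated (-4OHT), then in RACL medium without 4OHT, with 1 library of each. The comparisons address how double-positive cells differ from their single-positive neighbours and what loss of Pou5f1 does to the endoderm.

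Actin filaments decorated with tropomyosin and pulled by myosin II give cells their contractility. The smooth muscle forms of these proteins are made in smooth muscle, in myofibroblasts and in cells under tension, and many of their genes carry CArG boxes, the DNA element bound by serum response factor (SRF), whose actin-sensing cofactors are the MRTF proteins. The parietal endoderm, a migratory derivative of the primitive endoderm, is rich in actin stress fibres. Acta1, Acta2 and Actg2 encode the skeletal, vascular smooth muscle and enteric smooth muscle actins. Tpm1 and Tpm2 encode tropomyosins, which lie along the filament and regulate the access of myosin. Tagln encodes transgelin and Cnn1 calponin 1, which bind filaments of smooth muscle, Nexn encodes nexilin, a filament-binding protein of muscle and adhesion sites, and Myl9 encodes the regulatory light chain through which myosin II is switched on.

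The stretch of 250 bases before the RefSeq transcription start (build GRCm38.p6) was at hand for 6 of the 9 genes and is shown because SRF and TEAD elements near the start are a known feature of such genes. Each is written 5' to 3' on the gene's own strand, and capitals mark CArG boxes with at most 1 letter different and CATTCC, the core of the element bound by the TEAD partners of YAP, on either strand.
Acta1 chr8:123894776-123895025 (-): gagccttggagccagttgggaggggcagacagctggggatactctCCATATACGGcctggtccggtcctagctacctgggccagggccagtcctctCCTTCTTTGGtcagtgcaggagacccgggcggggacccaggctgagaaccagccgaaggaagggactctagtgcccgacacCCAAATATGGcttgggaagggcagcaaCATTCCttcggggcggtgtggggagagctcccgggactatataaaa
Acta2 chr19:34255374-34255623 (-): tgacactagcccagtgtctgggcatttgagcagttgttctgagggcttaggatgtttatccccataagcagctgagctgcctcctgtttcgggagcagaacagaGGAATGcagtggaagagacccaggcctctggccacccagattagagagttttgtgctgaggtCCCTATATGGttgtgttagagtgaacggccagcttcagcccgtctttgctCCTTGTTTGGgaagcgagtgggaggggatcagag
Myl9 chr2:156775214-156775463 (+): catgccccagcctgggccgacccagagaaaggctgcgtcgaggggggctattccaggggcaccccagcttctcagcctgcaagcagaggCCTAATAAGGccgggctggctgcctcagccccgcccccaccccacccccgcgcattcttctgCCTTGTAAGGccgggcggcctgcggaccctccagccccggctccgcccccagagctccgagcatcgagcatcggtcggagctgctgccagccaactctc
Tpm1 chr9:67049214-67049463 (-): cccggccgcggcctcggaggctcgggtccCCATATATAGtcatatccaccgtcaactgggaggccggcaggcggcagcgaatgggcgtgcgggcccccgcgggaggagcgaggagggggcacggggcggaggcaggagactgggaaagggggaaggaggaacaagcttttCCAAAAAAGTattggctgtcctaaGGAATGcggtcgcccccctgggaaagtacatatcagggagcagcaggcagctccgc
Cnn1 chr9:22099003-22099252 (+): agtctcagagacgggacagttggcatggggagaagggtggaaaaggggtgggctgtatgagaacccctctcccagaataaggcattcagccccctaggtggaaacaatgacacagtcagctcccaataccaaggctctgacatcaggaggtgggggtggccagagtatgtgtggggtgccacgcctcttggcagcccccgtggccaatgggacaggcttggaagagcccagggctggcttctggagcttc
Tpm2 chr4:43523555-43523804 (-): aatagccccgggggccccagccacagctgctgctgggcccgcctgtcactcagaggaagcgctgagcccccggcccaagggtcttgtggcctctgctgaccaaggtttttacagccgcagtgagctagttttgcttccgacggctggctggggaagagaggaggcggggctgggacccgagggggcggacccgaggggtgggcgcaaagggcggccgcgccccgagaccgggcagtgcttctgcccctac

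An exact CArG box lay 73 to 64 bases before the start of Acta1 (CCAAATATGG) and 161 to 152 bases before that of Myl9 (CCTAATAAGG), so 2 of 6 windows held one, against 482 of 32851 RefSeq windows of this length (1.47%). Allowing 1 letter to differ, Acta2 had matches from 84 to 75 and from 34 to 25 bases before its start. Tpm1 had matches from 221 to 212 and from 80 to 71 bases before, which gave 4 of 6 windows against 18.6% of all windows. CATTCC on either strand was in the windows of Acta1, Acta2 and Tpm1, against 12.6% of all windows. The Cnn1 and Tpm2 windows held neither motif. A match is a description of the letters and not a shown binding site, and a window without one says nothing about more distant sequence. For Tagln, Nexn and Actg2 only the gene positions are given, as in the GENCODE M21 annotation of GRCm38. Tagln lies at chr9:45929619-45936058 (minus strand) and overlaps Pcsk7 on the opposite strand, Nexn at chr3:152236982-152266350 (minus strand) and Actg2 at chr6:83512905-83536265 (minus strand).

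The bulk libraries held 8019631 to 11642571 reads each, of which the 9 genes took 24937 in all 9 libraries together. Levels are given as CPM (reads scaled to a common library size by TMM). The sorted groups matched their labels: Pou5f1 was at 8.37 to 26.4 CPM in Pdgfra+, 132 to 310 CPM in DP and 861 to 1137 CPM in Oct4+, while Pdgfra was at 535 to 967, 420 to 718 and 4.96 to 12.1 CPM. The summed CPM of 10 endoderm markers was 40657 to 53300 in Pdgfra+, 27260 to 39711 in DP and 226 to 541 in Oct4+, and that of 8 epiblast markers was 21.7 to 30.3, 107 to 189 and 1905 to 2653. The study calls these libraries biological replicates, and the p-values measure the spread between them. In sorted bulk samples, fewer cells that make a transcript and less of it per cell cannot be told apart.

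The 3 actins were low in DP and high in the third Pdgfra+ library. Acta1, the skeletal actin, was at 12.2, 5.48 and 26.2 CPM in Pdgfra+ replicates 1 to 3, at 2.37, 0.354 and 1.44 CPM in DP and at 0.310, 1.48 and 1.11 CPM in Oct4+. All 3 Pdgfra+ libraries lay above every DP and Oct4+ library, the lowest of them 2.31 times the highest DP library, and DP and Oct4+ overlapped. Acta2, the vascular smooth muscle actin, was at 5.74, 9.07 and 39.6 CPM in Pdgfra+, at 2.49, 1.42 and 2.88 CPM in DP and at 6.90, 5.52 and 0 CPM in Oct4+. The DP values were the tightest of the 3 groups, Pdgfra+ replicate 3 was 4.36 times the next Pdgfra+ library, and Oct4+ ran from no read at all in replicate 3 to 89 reads in replicate 1, overlapping both other groups. Actg2, the enteric actin, was at 0.244, 0.199 and 1.57 CPM in Pdgfra+, at 0, 0 and 0.261 CPM in DP and at 0, 0.0986 and 0 CPM in Oct4+. Its 22 reads in all libraries left it below the filter on low counts, so it was not tested in any comparison and its groups overlapped.

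Among the filament-binding proteins, Tagln was the most abundant. Tagln was at 25.3, 41.4 and 116 CPM in Pdgfra+, at 8.23, 2.95 and 8.23 CPM in DP and at 4.65, 7.99 and 3.33 CPM in Oct4+. Every Pdgfra+ library was at least 3.07 times the highest DP library, and DP and Oct4+ covered the same range. Nexn was at 6.1, 7.47 and 24.3 CPM in Pdgfra+, at 1.5, 0.708 and 1.96 CPM in DP and at 2.02, 1.87 and 0.776 CPM in Oct4+. Its pattern was that of Tagln, with all Pdgfra+ libraries above the rest and DP overlapping Oct4+. Cnn1 was at 1.71, 3.59 and 9.08 CPM in Pdgfra+, at 0.249, 0.708 and 1.31 CPM in DP and at 2.71, 2.86 and 1.33 CPM in Oct4+. Calponin was therefore lowest in DP, below every library of both other groups, although its highest DP library and its lowest Oct4+ library lay next to each other and rested on 10 and 12 reads.

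The myosin light chain and the tropomyosins spanned the widest range of levels. Myl9 was at 10.9, 6.77 and 24.6 CPM in Pdgfra+, at 3.99, 0.708 and 3.01 CPM in DP and at 0.930, 3.65 and 2.77 CPM in Oct4+ with Pdgfra+ above the rest and DP overlapping Oct4+. Tpm1 was at 347, 367 and 612 CPM in Pdgfra+, at 230, 169 and 232 CPM in DP and at 42.8, 87.3 and 70.4 CPM in Oct4+. It was the one gene of the 9 with 3 separate steps, from Pdgfra+ through DP to Oct4+, with no overlap between any of the groups. Tpm2 was at 8.54, 6.28 and 17.7 CPM in Pdgfra+, at 4.99, 6.02 and 5.10 CPM in DP and at 19.1, 17.6 and 11.3 CPM in Oct4+. Here DP was again lowest, but the lowest Pdgfra+ library was only 1.04 times the highest DP library, and Oct4+ overlapped Pdgfra+.

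**Figure D1:**
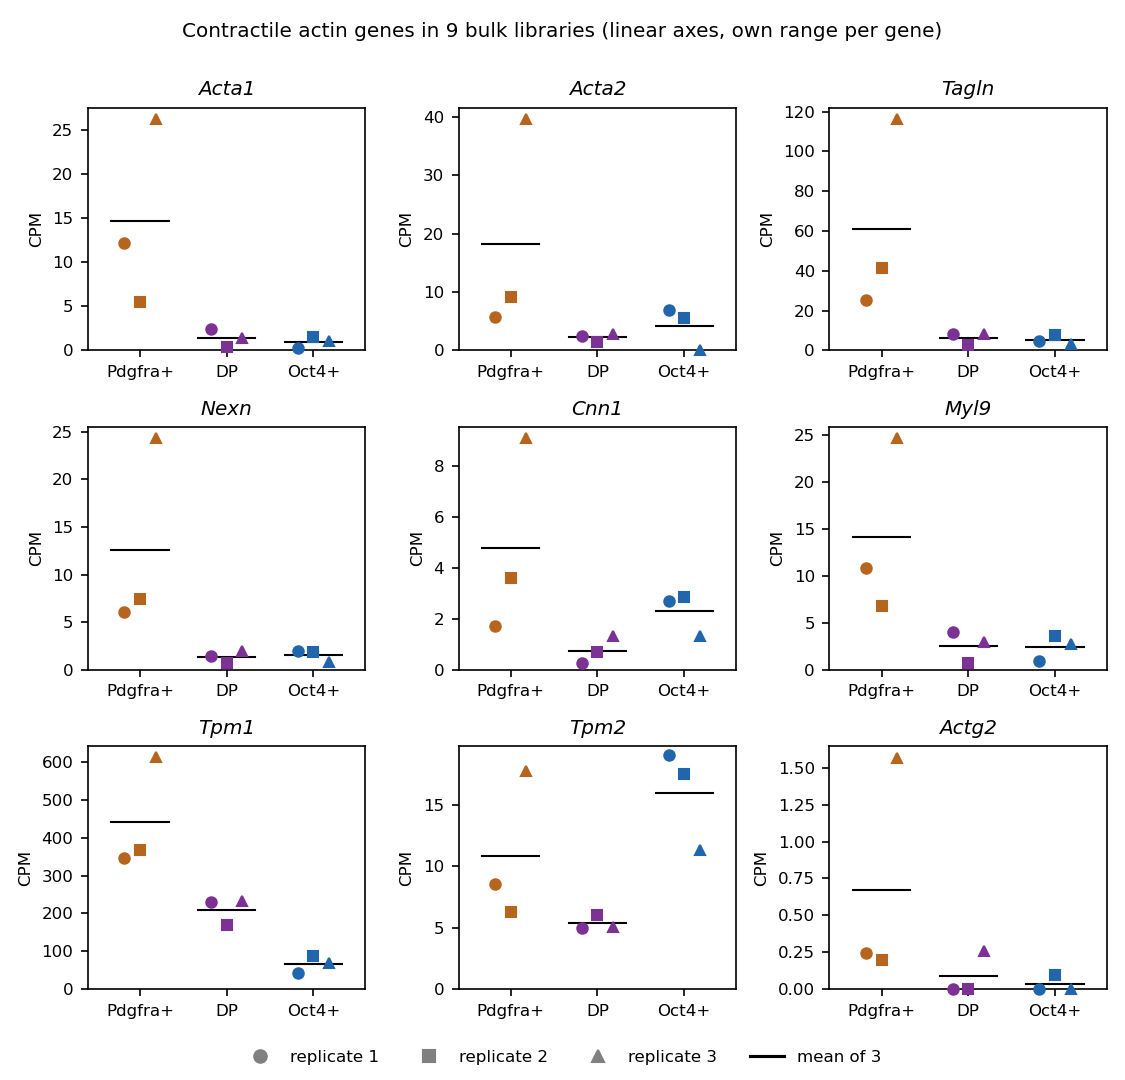
CPM of each of the 9 genes in each bulk library on linear axes, 1 panel per gene with its own range, with points for the 3 replicates of Pdgfra+, DP and Oct4+ and a line at the group mean. The third Pdgfra+ library is the highest of its group in all 9 panels, and Tpm1 steps down from Pdgfra+ through DP to Oct4+.

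Per kilobase of exon, Tpm1 led in every group, with a mean of 68.2 RPKM in Pdgfra+, 32.4 in DP and 10.3 in Oct4+. In Pdgfra+ it was followed by Tagln at 30.7 RPKM, Myl9 at 12.1, Acta1 at 9.52 and Acta2 at 8.25. In Oct4+ the second gene was Tpm2 at 5.49 RPKM, ahead of Tagln at 2.68 and Myl9 at 2.11. The summed CPM of the 9 genes, most of it Tpm1, was 417, 448 and 872 in Pdgfra+, 254, 181 and 256 in DP and 79.4, 128 and 91.0 in Oct4+, with no overlap between groups.

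Across the contrast that chose them, all 8 genes that passed the filter on low counts were lower in DP than in Pdgfra+, by 2.02-fold to 10.5-fold. The log2 difference was -3.39 ± 0.76 (SE, 3 libraries per group) for Acta1, -3.24 ± 0.61 for Tagln, -3.18 ± 0.64 for Nexn and -3.0 ± 1.07 for Acta2. It was -2.66 ± 0.72 for Cnn1 and -2.46 ± 0.70 for Myl9, and the tropomyosins moved least, with -1.07 ± 0.29 for Tpm1 and -1.01 ± 0.39 for Tpm2. Their median was -2.83, beside 0.02 for all 14185 genes tested. Acta1, Tagln and Nexn lay past the threshold used throughout, an adjusted p below 0.05 with an absolute log2 difference above 1.5, and Cnn1, Acta2, Myl9, Tpm1 and Tpm2 lay outside it, where 3.89% of all genes tested passed, 0.691% in the lower and 3.2% in the higher direction. In 8 of 8 genes the 3 DP libraries lay below the 3 Pdgfra+ libraries, beside 34.2% of all genes without overlap in either direction and 16.8% in that one. Because the contrast was the basis of the choice, nothing is read from these counts.

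The size of the difference depended on Pdgfra+ replicate 3, in which all 9 genes were highest among the Pdgfra+ libraries, by 1.67 times the next library for Tpm1 to 6.41 times for Actg2. Without that library the median log2 difference was -1.79, with all 8 genes still lower in DP, and the single values were -2.37 for Tagln, -2.29 for Nexn, -1.81 for Cnn1, -1.71 for Acta2, -0.76 for Tpm1 and -0.46 for Tpm2. None of the 8 then passed the threshold, and none did without DP replicate 2 or DP replicate 3 either, DP replicate 2 being the lowest DP library for 6 of the 9 genes. Same-numbered DP and Pdgfra+ libraries deviated together from their group means (correlation 0.271 to 0.477), and within those pairs Pdgfra+ exceeded DP for Tagln by 3.07, 14.0 and 14.1 times and for Acta1 by 5.15, 15.5 and 18.2 times. For Tpm2 the same ratios were 1.71, 1.04 and 3.48. With the replicate number as a block on these 6 libraries, 6 of the 8 genes lay past the threshold, against 3 on the same libraries without the block and 3 with the block on all 9 libraries. These counts rest on the contrast that chose the genes and stand without the share of all genes, so nothing is read from them. Of 6 visceral endoderm markers, 2 were past the threshold and higher in DP, where 3.2% of all genes tested were. They were Amn (log2 2.02 ± 0.43, edgeR adjusted p = 0.0288) and Cubn (1.91 ± 0.49, edgeR adjusted p = 0.0463). The other 4 and all 6 parietal endoderm markers did not pass, and all 6 parietal markers had negative log2 differences (median -0.82). The part of these markers in the difference was not tested.

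In DP against Oct4+, most of the 9 genes were at similar low levels and the tropomyosins parted. This comparison shares the 3 DP libraries with the contrast that chose the genes and is not independent of that choice. As the genes were chosen for low levels in those libraries, lower values in DP are favoured. The adjusted p-values and counts of the 9 genes in this comparison are therefore a description. Tpm1 was 3.15-fold higher in DP (log2 difference 1.65 ± 0.29, edgeR adjusted p = 0.000964, higher in 3 of 3 libraries), and Tpm2 was 2.97-fold lower (-1.57 ± 0.39, edgeR adjusted p = 0.00636, lower in 3 of 3). These 2 of 8 genes passed the threshold, where 27.7% of all genes tested did, 14.6% in the lower and 13.1% in the higher direction. Cnn1 was at -1.61 ± 0.73 (edgeR adjusted p = 0.0839) and did not pass, although its groups did not overlap. The log2 difference was 0.54 ± 0.82 for Acta1 (edgeR adjusted p = 0.594), 0.28 ± 0.61 for Tagln (0.724), 0.08 ± 0.71 for Myl9 (0.935), -0.19 ± 0.66 for Nexn (0.826) and -0.89 ± 1.06 for Acta2 (0.495). Differences larger than these errors could also go undetected, so the values do not show that the levels were equal. The groups did not overlap for 3 of 8 genes, beside 62.6% of all genes tested.

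Both tropomyosin calls were near the threshold. Without Oct4+ replicate 1 neither gene passed (log2 1.43 for Tpm1 and -1.41 for Tpm2), without DP replicate 1 or Oct4+ replicate 2 Tpm2 did not, and in each of these cases the adjusted p stayed below 0.05. With library totals in place of TMM, which moved the median of all genes by -0.25, Tpm1 was at 1.40, under the threshold, and Cnn1 at -1.85 passed (edgeR adjusted p = 0.0493).

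Between Oct4+ and Pdgfra+ the values are likewise a description, because the genes were chosen for their level in the same 3 Pdgfra+ libraries and any group set against those would tend to be lower. The log2 difference was -3.94 ± 0.78 for Acta1, -3.52 ± 0.62 for Tagln, -3.0 ± 0.62 for Nexn, -2.73 ± 0.30 for Tpm1 and -2.54 ± 0.69 for Myl9, with all Oct4+ libraries below all Pdgfra+ libraries. It was -2.11 ± 1.0 for Acta2, -1.05 ± 0.64 for Cnn1 and 0.56 ± 0.37 for Tpm2, and in these genes the groups overlapped. The first 5 genes lay past the threshold, where 32% of all genes tested did, 14.7% in the lower and 17.3% in the higher direction, and 5 of 8 did not overlap, beside 69.3% of all genes tested. Nothing is read from these counts.

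**Figure D2:**
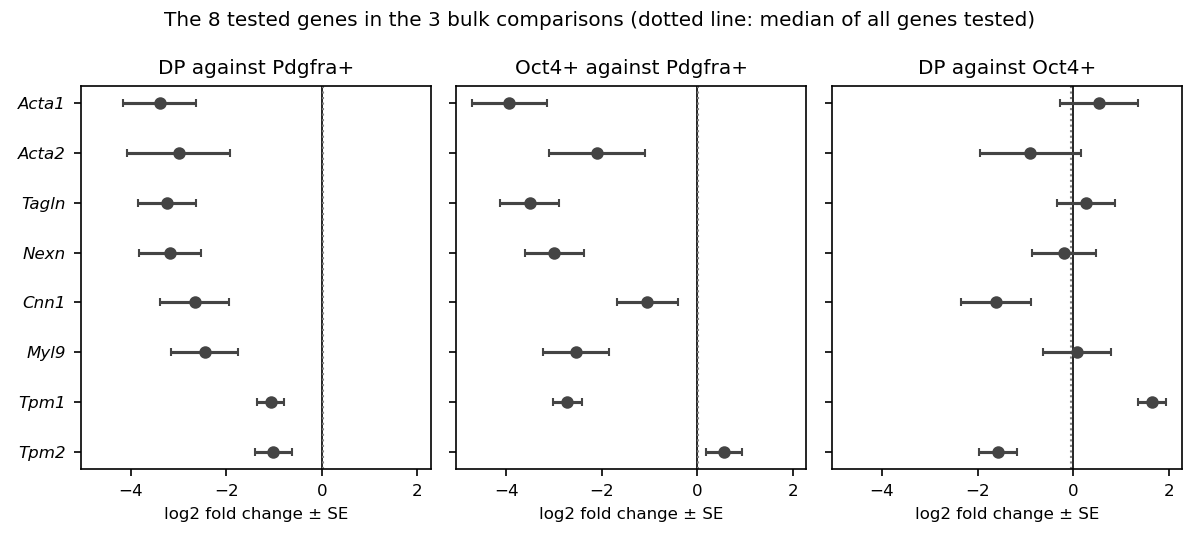
Log2 difference with SE of the 8 tested genes in the 3 comparisons of the bulk groups, with the median of all genes tested as a dotted line. The DP against Pdgfra+ values, which chose the genes, run from -3.39 to -1.01, the DP against Oct4+ values lie on both sides of 0, and the Oct4+ against Pdgfra+ values are negative for all but Tpm2.

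The 9 genes followed each other over the 9 libraries to differing degrees. Choosing genes that separate DP from Pdgfra+ can itself make genes follow each other, and its share in this was not measured. The correlation of log2 CPM with the mean of the other 8 was 0.978 for Nexn, 0.962 for Tagln, 0.874 for Acta1, 0.862 for Myl9, 0.764 for Acta2, 0.728 for Cnn1, 0.631 for Tpm1 and 0.213 for Tpm2, and 28 of the 36 gene pairs were above 0.5. These are descriptions over 9 libraries in 3 groups, and Pdgfra+ replicate 3 was the highest of all libraries for 8 of the 9 genes. Among the 10878 other genes with a mean of at least 5 CPM, those most like the mean of the 9 genes were Wdr90 at a correlation of 0.973, Zfx at 0.967, Fzd6 at 0.964, Lins1 at 0.961 and Tbc1d19 at 0.959, followed by Ccdc127, Son, Scai, Prkag2 and Prag1 down to 0.949. The standardised mean of the 9 genes itself was 1.74 in Pdgfra+ replicate 3 and 0.516 and 0.518 in the other Pdgfra+ libraries, and it was between -0.881 and -0.0196 in the DP and Oct4+ libraries.

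Near-identical paralogs could share reads. Of the stretches of 50 bases in the longest transcript, 2.0% in Acta1 and 0.352% in Acta2 also occurred in another actin, and 0 of those in Actg2, Tpm1 and Tpm2 occurred in a family member. The cytoplasmic actins, which every cell uses, did not pass the threshold in any of the comparisons. Actb was at 2113 to 2184 CPM in Pdgfra+, 2517 to 3160 CPM in DP and 2598 to 3403 CPM in Oct4+, with a log2 difference between DP and Pdgfra+ of 0.43 ± 0.14 (edgeR adjusted p = 0.0978), and Actg1 had one of -0.12 ± 0.13 (edgeR adjusted p = 0.586). In Oct4+ against Pdgfra+ only the size fell short, for Actb at 0.45 (edgeR adjusted p = 0.0185) and Actg1 at -0.55 (edgeR adjusted p = 0.0041). The same held for Actg1 in DP against Oct4+, at 0.43 (edgeR adjusted p = 0.0175).

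To set the 9 genes among their neighbours, 55 other genes of the contractile and actin cytoskeleton were followed in 6 lists, of which 51 could be tested. Between DP and Pdgfra+, 6 of them fell and 2 rose (15.7% of the 51, beside 3.89% of all genes tested), and their median log2 difference was -0.49 beside 0.02 for all genes. Of the 10 thin filament proteins tested, 3 were lower in DP and the other 7 did not pass. Tnnc1, the calcium-binding troponin C of slow muscle and heart, was at 13.3, 25.8 and 49.9 CPM in Pdgfra+ and at 3.62, 3.54 and 4.58 CPM in DP (log2 -2.92 ± 0.44, edgeR adjusted p = 0.0123). Lmod1, a smooth muscle leiomodin that nucleates actin filaments, was at -2.88 ± 0.71 (edgeR adjusted p = 0.0422), and Cald1, caldesmon, at -2.15 ± 0.34 (edgeR adjusted p = 0.0141). Both SRF and YAP response genes that passed were lower in DP. Ankrd1, a cardiac ankyrin repeat protein, was at 54.2, 57.4 and 62.3 CPM in Pdgfra+ and at 17.1, 8.02 and 7.45 CPM in DP (-2.42 ± 0.49, edgeR adjusted p = 0.0239), and Ccn2, the matricellular factor CTGF, was at 790, 576 and 1174 CPM in Pdgfra+ and at 267, 73.9 and 138 CPM in DP (-2.41 ± 0.43, edgeR adjusted p = 0.0183).

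In the other lists fewer genes passed. Of 20 crosslinkers and adhesion proteins, Flnc, the muscle filamin, fell (-1.51 ± 0.36, edgeR adjusted p = 0.0404) and Des, the intermediate filament desmin, rose from 0.488, 0.598 and 0.209 CPM in Pdgfra+ to 3.24, 3.54 and 3.79 CPM in DP (2.99 ± 0.46, edgeR adjusted p = 0.0125). Of 11 myosin II genes and regulators, only the nonmuscle heavy chain Myh14 passed, higher in DP (1.5 ± 0.39, edgeR adjusted p = 0.0475). None of SRF and its 3 cofactors passed the threshold. All 4 had negative log2 differences without overlap of the groups (median -0.68), beside 34.2% of all genes tested without overlap, 16.8% in the lower direction. Myocd was at -2.0 ± 0.60 (edgeR adjusted p = 0.0863), and Srf itself stood at 151, 159 and 190 CPM in Pdgfra+ and at 94.4, 101 and 93.1 CPM in DP, under the size threshold (-0.79 ± 0.13, edgeR adjusted p = 0.0171). With the block on the 6 libraries, Flnc (-1.39) and Myh14 (1.48) fell under the size threshold and Myocd, of like size, passed on its adjusted p (-2.03, edgeR adjusted p = 0.0334). The count of 8 genes was 1 without Pdgfra+ replicate 3, where only Tnnc1 was left, 4 without Pdgfra+ replicate 2, 3 without DP replicate 2 and 2 without DP replicate 3.

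**Figure D3:**
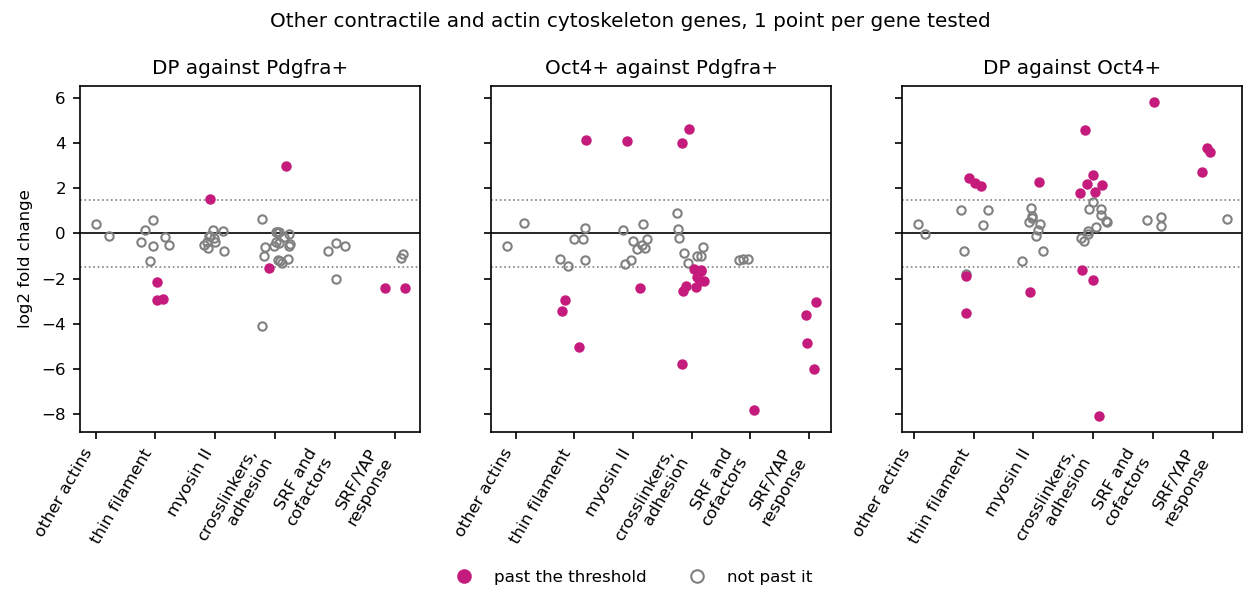
Log2 differences of the 51 tested genes of the 6 wider contractile lists in the 3 comparisons, 1 column of points per list, with genes past the threshold filled and dotted lines at a log2 difference of 1.5 either way. Between DP and Pdgfra+, 6 genes lie past it on the lower side and 2 on the higher side, and the points of Myocd and Synpo2 are fitted values where Oct4+ or DP had 0 reads and are no measure of size.

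In DP against Oct4+, 20 of the 51 genes passed (14 higher and 6 lower in DP, 39.2% beside 27.7% of all genes), and in Oct4+ against Pdgfra+ 23 passed (4 higher and 19 lower in Oct4+, 45.1% beside 32%). The tropomyosin Tpm4 was higher in DP than in Oct4+ (2.45 ± 0.19, edgeR adjusted p = 7.95e-06), as were calponin 2, Cnn2 (2.23 ± 0.23, edgeR adjusted p = 3.53e-05), Tnnc1 (2.09) and the nonmuscle myosin heavy chain Myh9 (2.27). Those 4 genes were lower in Oct4+ than in Pdgfra+, by log2 differences of -2.94, -3.45, -5.01 and -2.39. The response gene Ankrd1 was higher in DP than in Oct4+ (3.59) and lower in Oct4+ than in Pdgfra+ (-6.00), and so were Tgfb1i1 (3.76 and -4.86), Ccn1 (2.70 and -3.60) and the LIM protein gene Fhl2 (4.57 and -5.79). Myh14, Des and Tagln3 ran the other way, lower in DP than in Oct4+ (-2.58, -1.64 and -3.53) and higher in Oct4+ than in Pdgfra+ (4.08, 4.63 and 4.12). Synpo2 had 0 reads in DP and 110 in Oct4+, and Myocd had 0 reads in Oct4+, 18 in DP and 84 in Pdgfra+, each past the threshold in DP against Oct4+ (edgeR adjusted p = 0.00118 and 0.00393).

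Fibroblasts, which form the feeder layer, are known to express smooth muscle actin and transgelin, and fibroblast markers were measured beside the 9 genes. The summed CPM of 15 such markers was 77.6, 144 and 54.8 in Pdgfra+, 64.1, 64.1 and 20.4 in DP and 208, 69.2 and 46.9 in Oct4+, but Fbn1, the gene of fibrillin 1, made up most of it in Pdgfra+, at 70.2, 139 and 35.2 CPM. Without Fbn1 the other 14 summed to 7.45, 4.88 and 19.6 CPM in Pdgfra+, 10.3, 12.2 and 9.80 CPM in DP and 196, 62.9 and 41.0 CPM in Oct4+. Pdgfra+ replicate 3, in which all 9 contractile genes were highest, was thus the highest of its group without Fbn1 and the lowest with it. None of the 9 fibroblast markers that could be tested passed between DP and Pdgfra+, beside 3.89% of all genes tested. Between DP and Oct4+ 6 passed (5 lower in DP), beside 27.7%, and between Oct4+ and Pdgfra+ 7 passed (6 higher in Oct4+), beside 32%. In Pdgfra+ replicate 3 the collagen genes Col3a1 and Col1a1 stood at 7.62 and 2.61 CPM, against 0 to 0.4 CPM in the other Pdgfra+ libraries. Some of the other markers were also highest there, among them Pdgfrb at 0.366, 0.598 and 2.30 CPM in Pdgfra+ replicates 1 to 3. Others did not follow this order, with Col1a2 at 1.22, 1.69 and 1.67 CPM and Twist1 at 4.76, 1.39 and 2.71 CPM. Oct4+ replicate 1, with the highest Acta2 of its group, had Col1a1 at 68.3 CPM, Col1a2 at 37.0 CPM and Col3a1 at 17.7 CPM. The part of fibroblast RNA in the bulk levels of the 9 genes was not tested.

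The single-cell matrices allowed the same genes to be placed in cells. Of 14179 barcodes, 11623 were kept (at least 1000 genes and below 10% mitochondrial UMIs), 5324 in -4OHT and 6299 in +4OHT, with a median of 17947.5 and 12647 UMIs per cell. The libraries shared 21 barcodes, and no doublet caller was run. Cells were clustered without the 9 genes or the wider contractile lists and named from marker genes, which gave 1326 endoderm-like cells in -4OHT and 6032 in +4OHT, 3739 epiblast-like cells in -4OHT and none in +4OHT, and 20 and 31 fibroblast-like cells. With 1 library per condition there is no test between conditions, and the intervals below (95%, exact Poisson or binomial) cover counting error only. The names were rebuilt here and may differ from those used in the study.

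In endoderm-like cells all 9 genes had a higher summed level in +4OHT than in -4OHT, that of Myl9 within counting error. Tagln stood at 14.5 CPM of UMIs in -4OHT and 60.9 CPM in +4OHT (ratio 4.19, interval 3.74 to 4.70), Acta2 at 11.5 and 39.3 CPM (3.4, 3.0 to 3.88) and Acta1 at 1.09 and 5.48 CPM (5.02, 3.33 to 7.92). Tpm1, the most abundant, stood at 266 and 719 CPM (2.71, 2.63 to 2.78), Nexn at 5.50 and 15.7 CPM (2.86, 2.37 to 3.47), Cnn1 at 1.09 and 3.66 CPM (3.36, 2.21 to 5.32) and Tpm2 at 6.54 and 10.0 CPM (1.54, 1.29 to 1.85). Myl9 stood at 23.8 and 24.4 CPM (1.03, 0.931 to 1.13), and Actg2 had 2 and 38 UMIs. Summed, the 9 genes stood at 330 CPM in -4OHT and 879 CPM in +4OHT, a log2 ratio of 1.41, and most of both sums was Tpm1. The median log2 ratio of the single genes was 1.75 beside 0.17 for all 15187 genes compared.

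The endoderm-like cells of the libraries fell into different clusters. A cluster led by the visceral endoderm receptor genes Amn and Cubn held 721 of the 1326 endoderm-like cells in -4OHT (54.4%) and 7 of 6032 in +4OHT (0.116%). Within -4OHT that cluster had 3 Acta2 UMIs in 721 cells (0.206 CPM) against 251 in the other endoderm-like cells (33.6 CPM), 6 Tagln UMIs (0.413 CPM) against 314 (42.0 CPM), and 1 UMI each of Acta1 and Cnn1 (0.0688 CPM) against 23 each (3.08 CPM). Myl9 was 34.4-fold lower there (1.93 against 66.2 CPM), Nexn 17.7-fold lower (0.826 against 14.6 CPM), Tpm1 3.47-fold lower (145 against 501 CPM) and Tpm2 1.74-fold lower (5.23 against 9.10 CPM). The median log2 difference of the 8 genes with at least 20 UMIs (all but Actg2) was -5.29, beside -0.12 for all genes and -0.93 for the wider contractile lists. The cluster also held more Pou5f1 (21.2 against 3.08 CPM) at a like level of Pdgfra (136 against 168 CPM). Its median depth of 18598 UMIs per cell was above the 14912 of all endoderm-like cells of the library.

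Cluster by cluster, the comparison of +4OHT with -4OHT gave smaller and mixed values. In the cluster led by Pimreg, Iqgap3 and Car4 (322 and 2247 cells) the median log2 ratio of the 8 genes with at least 20 UMIs was -0.02, with Acta2 at a ratio of 0.597 (0.517 to 0.690) and Tagln at 58.3 CPM in -4OHT and 67.7 CPM in +4OHT. In the cluster led by Ccn2, Ccn1 and Pitx1 (225 and 2141 cells) the median of 8 genes was 1.26, with Acta2 at 9.33 and 73.6 CPM (ratio 7.89, 5.20 to 12.6), Tagln at 20.4 and 85.5 CPM and Tpm1 at 450 and 862 CPM. In the cluster led by Gkn2 and Gkn1 (58 and 1637 cells) the median of the 6 genes with at least 20 UMIs was 0.35, with Tpm1 at 488 and 621 CPM. Tpm1 was thus higher in +4OHT in all 3 clusters. Within +4OHT the Gkn2 and Gkn1 cluster held the least of Tagln, Acta2 and Myl9, with Tagln at 4.89 CPM against 67.7 and 85.5 CPM in the Car4 and Ccn2 clusters, Acta2 at 7.27 against 29.8 and 73.6 CPM and Myl9 at 4.17 against 27.7 and 31.9 CPM. Myl9 ran the other way in the Car4 and Ccn2 clusters, from 63.6 CPM in -4OHT to 27.7 CPM in +4OHT and from 85.7 to 31.9 CPM. At a clustering resolution of 0.3 instead of 0.6, where 719 of the 721 cells of the Amn and Cubn cluster lost the endoderm-like name, the log2 ratio of the sum was 0.389 instead of 1.41.

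Except for Tpm1, the UMIs of these genes sat in few cells. In +4OHT endoderm-like cells, Acta2 was detected in 297 of 6032 cells (4.92%), Tagln in 646 (10.7%), Nexn in 783 (13.0%), Myl9 in 869 (14.4%), Tpm2 in 427 (7.08%), Cnn1 in 171 (2.83%), Acta1 in 123 (2.04%) and Actg2 in 34, against 5893 cells for Tpm1 (97.7%). The 61 cells with the most Acta2 UMIs, the top 1%, held 77.0% of all Acta2 UMIs, and the like share was 85.9% for Acta1, 63.1% for Cnn1, 51.3% for Tagln, 45.4% for Tpm2, 26.9% for Myl9, 23.2% for Nexn and 7.67% for Tpm1. A single +4OHT cell held up to 223 Acta2 UMIs and 120 Tagln UMIs. Of the 120 cells with at least 5 Acta2 UMIs, 86 also had a Tagln UMI (71.7%, beside 10.7% of all endoderm-like cells of that library). Of those 120 cells, 3 had a UMI of a collagen marker (2.5%, beside 2.09% of all), and their median depth of 17311.5 UMIs was above the 12550 of the class. In -4OHT the top 1%, 14 cells, held 94.1% of the Acta2 UMIs and 76.2% of the Tagln UMIs, which were found in 26 and 57 cells. A gene found in few cells has a high share by construction. The intervals above do not cover this spread from cell to cell.

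**Figure D4:**
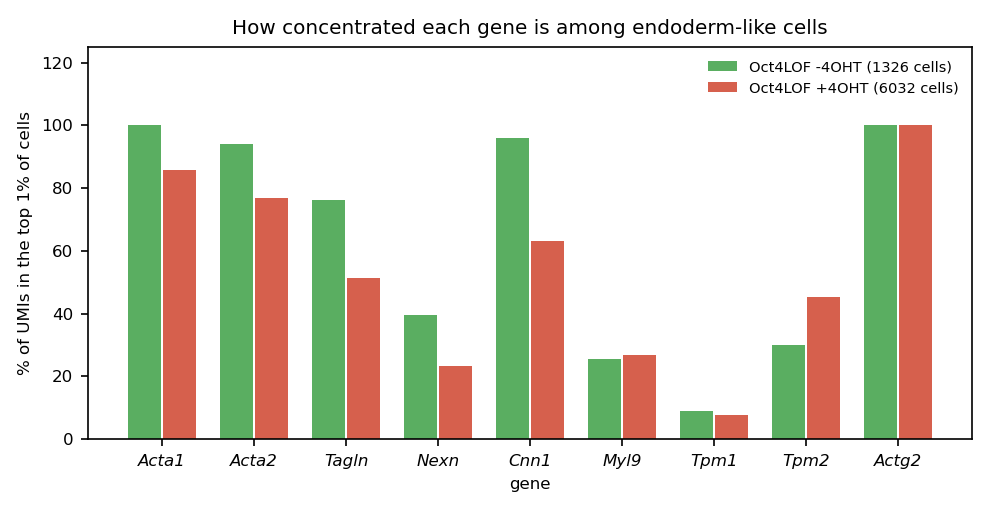
Bars give the percent of each gene's UMIs held by the top 1% of endoderm-like cells in -4OHT (14 cells) and +4OHT (61 cells). In +4OHT the share runs from 7.67% for Tpm1 to 85.9% for Acta1, while Actg2 in both libraries and Acta1 in -4OHT had UMIs in no more cells than the top 1% holds, which fixes their bars at 100%.

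Other cell classes ordered the genes differently. In -4OHT epiblast-like cells, 19035 UMIs deep at the median, Acta1 was at 0.160 CPM, Acta2 at 0.173 CPM, Myl9 at 0.705 CPM and Tagln at 0.998 CPM, all below the endoderm-like cells of that library, and Acta2 was detected in 0.294% of the cells. Tpm1 was at 49.5 CPM against 266 CPM in endoderm-like cells, Nexn at 4.00 against 5.50 CPM, and Cnn1 at 1.16 against 1.09 CPM, where the ratio of 1.06 had an interval of 0.669 to 1.74. Tpm2 was the exception, at 24.2 CPM in epiblast-like and 6.54 CPM in endoderm-like cells (3.69 times, 3.12 to 4.41). In fibroblast-like cells, Acta2 stood at 442 CPM in -4OHT and 470 CPM in +4OHT, Tagln at 308 and 298 CPM, Tpm2 at 272 and 179 CPM and Nexn at 37.1 and 31.4 CPM. Those cells had 0 UMIs of Acta1 and of Actg2 in both libraries, which allows up to 6.52 CPM in -4OHT and 3.86 CPM in +4OHT.

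As a view of OCT4 within 1 library, endoderm-like cells were split by a detected Pou5f1 UMI after each was thinned to 5000 UMIs. In -4OHT the 9 genes summed to 184 CPM (interval 144 to 233) in 76 cells with a Pou5f1 UMI and to 386 CPM (371 to 402) in 1227 cells without, a log2 ratio of -1.07. At a clustering resolution of 0.3 the direction turned, to 0.50. Before thinning, 224 of the 246 endoderm-like cells with a Pou5f1 UMI in -4OHT lay in the Amn and Cubn cluster, which was low in these genes, and its part in the difference was not tested. Tpm1 was at 150 and 307 CPM, Myl9 at 0 and 33.3 CPM and Tpm2 at 15.8 and 5.87 CPM, and Acta1, Acta2, Nexn, Cnn1 and Actg2 had 0 UMIs in the cells with Pou5f1, which for Acta2 allows up to 9.71 CPM, beside 14.2 CPM in the cells without. Tagln was at 18.4 and 17.4 CPM, but all 7 of its UMIs in the cells with Pou5f1 came from 1 cell. In +4OHT, where 55 cells had a Pou5f1 UMI and 5894 had none, the sums were 509 and 829 CPM. The split rests on a detected transcript and not on the reporter, and free RNA can put a UMI in a cell that does not make it, for which no correction was made. Sampling at this depth leaves Pou5f1 undetected in many cells that make it.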

How the data were processed

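The bulk table held read counts per gene as deposited, with no normalization stated by the authors. No source used here gives the aligner, genome build, annotation or use of strand behind it. The single-cell matrices held UMI counts made by the authors with Cell Ranger 6.1.2 on mm10, per the file headers. Counts of all 9 bulk libraries were fitted with edgeR 4.0.16 (R 4.3.3, TMM scaling, filterByExpr, quasi-likelihood test, Benjamini-Hochberg adjustment over 14185 genes), and 35 lines without a gene name were left out. Calls needed an adjusted p below 0.05 and an absolute log2 difference above 1.5. Replicates of a group differed beyond sampling noise. Same-numbered DP and Pdgfra+ libraries correlated, with a correlation of 0.271 to 0.477 read from the counts and no shared culture named in the labels, and the numbers of the other group pairs did not. Cells were log-normalised, reduced to 20 principal components of 2000 variable genes and clustered with leidenalg 0.10.2 at resolution 0.6. Cluster names came from marker lists by a score set after the clusters were seen. The 9 genes, gene lists and tests were chosen with earlier results of these data known. Named genes were the 9, at most 4 per wider list and comparison past the threshold by size, at most 4 fibroblast markers, and the 10 genes most like the mean of the 9. Marker genes, Fbn1, Pdgfrb, the cytoplasmic actins, Srf and Myocd were added as checks after their values were seen. Alternatives were DESeq2 1.42.0 and its size factors, library totals, other filters on low counts, only the 6 libraries compared, a replicate block, leaving out each library, other clustering resolutions and at least 2000 genes per cell. The fit was tested on simulated data.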

Additional observations from a re-analysis of the deposited data

How the results depend on the processing

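The 8 genes were lower in DP than in Pdgfra+ under every alternative run, with a median log2 difference of -3.25 to -1.79 when 1 library was left out, but the number past the threshold was 3 in the reported fit, 6 without a filter on low counts, 5 with DESeq2 and 0 without Pdgfra+ replicate 3, DP replicate 2 or DP replicate 3. This contrast chose the genes, and the counts of the alternatives stand without the share of all genes, so nothing is read from them. Of the wider contractile genes, 8 passed in that comparison, 5 with only the 6 libraries compared and 1 to 9 with 1 library left out. For the 9 genes in DP against Oct4+ the count of 2, likewise a description, ran from 0 to 2 with 1 library left out. Fibroblast markers past the threshold numbered 0 between DP and Pdgfra+ and 1 with DESeq2 or without a filter, 6 between DP and Oct4+ with 11 without a filter and 3 with a stricter one, and 7 between Oct4+ and Pdgfra+ with 3 with a stricter one.

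With a replicate block, 6 of the 9 genes passed between DP and Pdgfra+ on those 6 libraries and 3 on all 9 libraries, and the wider lists had 7 and 6 genes. The counts of the 9 genes in that comparison are again a description only and stand without the share of all genes. In DP against Oct4+ the block added Lmod1 on all 9 libraries, and in Oct4+ against Pdgfra+ on the 6 libraries it removed Flnc. It changed no call of the 9 genes in those 2 comparisons.

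The log2 ratio of the summed 9 genes between +4OHT and -4OHT, 1.41 as reported, was 0.389 at a clustering resolution of 0.3 and 1.16 at 1.0, where 207 of the 721 Amn and Cubn cells took the name of mixed cells. The Pou5f1 split of -4OHT reversed from -1.07 to 0.50 at resolution 0.3. Over all alternatives the split ran from -1.22 to 0.50. The sums behind the reported ratio and split were mostly Tpm1. At resolution 0.3, 2 of the 721 Amn and Cubn cells were named endoderm-like, and the part of this renaming in either change was not tested. Depth limits Actg2, with 22 bulk reads, and Acta1 and Cnn1 in single cells.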
